A study of Bos taurus with 8 samples.

Results

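The nuclear-encoded genes of oxidative phosphorylation were compared between 8-cell cattle embryos made in 3 ways. They were the 90 of 21258 features in the deposited files whose symbol begins with NDUF, UQCR, ATP5, SDHA, SDHB, SDHC or SDHD, or with COX followed by a digit from 4 to 8, and that do not lie on the mitochondrial chromosome. By the role of the protein, 37 were genes of complex I, 4 of complex II, 7 of complex III, 14 of complex IV and 17 of complex V. Among the 17, ATP5SL was placed by its symbol and not by its role. The other 11 begin with the same letters but encode assembly factors, which help to build complexes I and II without being part of them. The rule reads symbol and chromosome alone, though the set was proposed with earlier results of these data known. The genes lay on 25 chromosomes, 2 of them on X.

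KDM4E-SCNT embryos (2 libraries) were cloned by somatic cell nuclear transfer and overexpressed KDM4E, an enzyme that removes methyl groups from histone H3. IVF embryos (3 libraries) came from fertilisation in vitro. SCNT embryos (3 libraries) were cloned without the added KDM4E, and the series design sets both other groups against them. All were Holstein, and total RNA of a pool of 8 embryos went into each library. The labels do not give the way KDM4E was introduced, the donor cells, the hour of collection or whether the pools of a group were made on separate occasions. The p-values therefore measure the spread between these libraries, which may be technical.

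Oxidative phosphorylation makes ATP at the inner membrane of the mitochondrion. Complex I takes electrons from NADH and complex II takes them from succinate, complex III passes them to cytochrome c and complex IV passes them to oxygen. Complex V, the ATP synthase, is driven by the proton gradient that complexes I, III and IV build. Mitochondrial DNA encodes the catalytic core of complex IV and parts of complexes I, III and V, and the nucleus encodes the rest. Cleavage-stage cattle embryos rely on oxidative phosphorylation in mitochondria inherited from the oocyte, and around the 8-cell stage their own genome becomes broadly active.

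The authors' values are FPKM, in which fragments are scaled by the length of the transcript and the size of the library, so depth is unknown and a member's level is a share of its library. Between 10975 and 13050 features per library had at least 1 FPKM. Transcripts from the mitochondrial chromosome took 11% and 11.5% of FPKM in KDM4E-SCNT, 6.08% to 7.1% in IVF and 7.54% to 10.6% in SCNT. No feature carried the symbol KDM4E. LOC524768, which the files describe as similar to KDM4C and do not name KDM4E, stood at 102 and 206 FPKM in KDM4E-SCNT, 109, 88.3 and 109 FPKM in IVF, and 25.4, 29.9 and 33.9 FPKM in SCNT, so the overexpression itself was not checked here. The label of embryo was checked with 9 markers of oocytes and early embryos, such as GDF9, ZP2 and POU5F1. Their summed level was 17400 to 20700 FPKM in KDM4E-SCNT, 22700 to 29200 FPKM in IVF and 3650 to 8210 FPKM in SCNT, and none of the 9 was listed at 0 in any library.

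The 90 genes together took a smaller share of the RNA in IVF and KDM4E-SCNT libraries than in SCNT libraries. Their share of all FPKM was 1.68% and 1.47% in KDM4E-SCNT, 1.34%, 1.2% and 1.21% in IVF, and 2.83%, 2.64% and 2.4% in SCNT. The groups did not overlap, and SCNT was highest. As bulk pools, these libraries cannot tell fewer cells of a type from less RNA per cell. By their median, the members were abundant transcripts in every group. Their median percentile among all tested features was 88.2 and 90.2 in KDM4E-SCNT, 81.4 to 83.9 in IVF and 92.5 to 94.2 in SCNT. Not all were abundant, since 11 to 26 of the 90 were under 10 FPKM in a library. In KDM4E-SCNT the highest mean level was that of ATP5J, part of the peripheral stalk of the ATP synthase, at 945 FPKM. In IVF it was that of COX7A2L, at 917 FPKM, and in SCNT that of the complex IV subunit NDUFA4, at 1690 FPKM. The order of the 90 mean levels was most alike between KDM4E-SCNT and SCNT (Spearman's rho 0.92), next between KDM4E-SCNT and IVF (0.89) and least alike between IVF and SCNT (0.72). These rhos run across genes of shared libraries, which are not independent replicates.

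**Figure D1:**
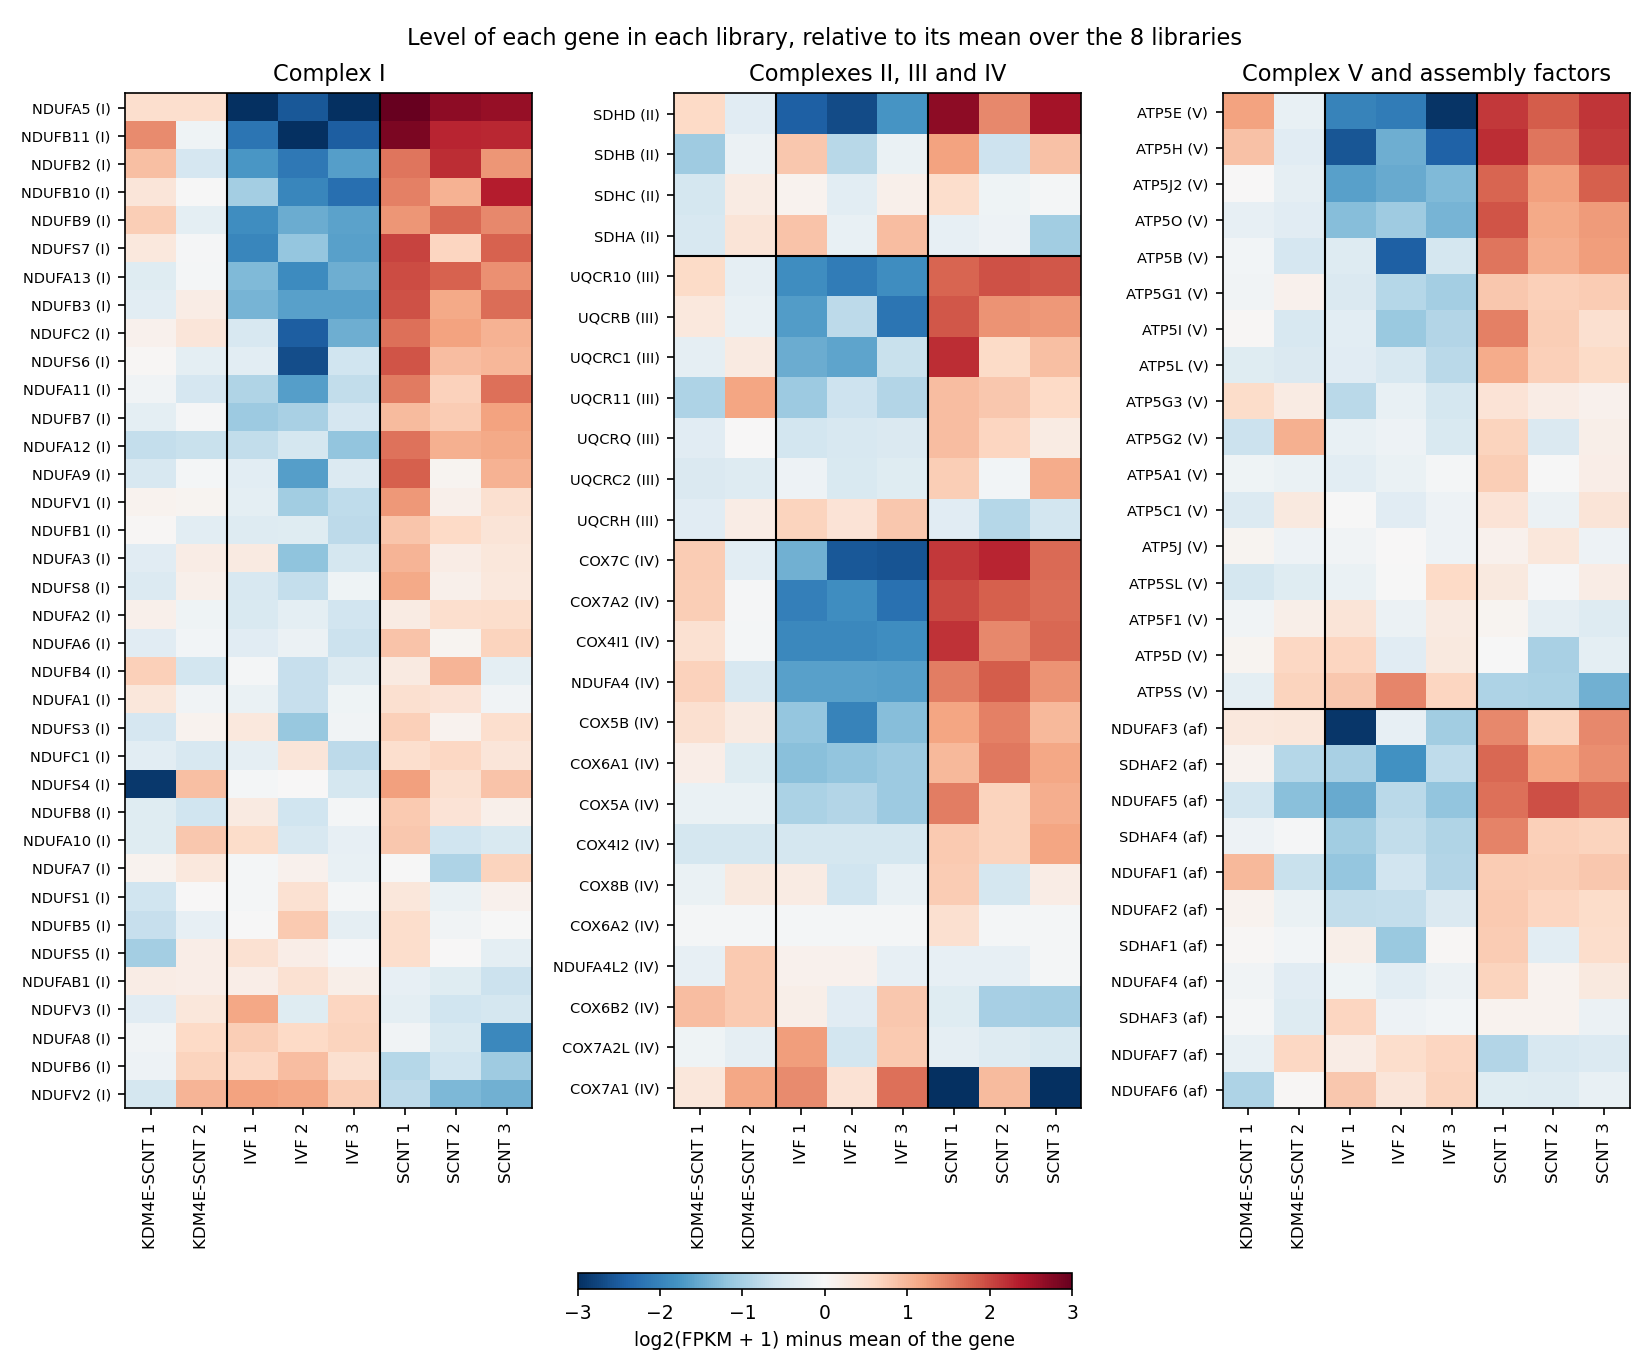
Level of the genes, with 1 of the 90 not shown, in each of the 8 libraries (columns: KDM4E-SCNT, IVF, SCNT), as log2(FPKM + 1) minus the gene's mean over the 8 libraries, with red above and blue below that mean and colours saturating at 3. The complex is in brackets (af, assembly factor), and most rows are blue in IVF and red in SCNT, while a few at the foot of a complex, such as NDUFV2 and COX7A1 (listed at 0 in 2 SCNT libraries), run the other way.

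A gene entered the tests with at least 1 FPKM in at least 2 libraries, which 88 of the 90 did. COX6A2 and NDUFA4L2 did not. Each log2 difference below is on the log2(FPKM + 1) scale, given with its standard error, and understates the change of low genes. It was called at a Benjamini-Hochberg adjusted p under 0.05 over all 14839 features tested, with limma.

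Most members fell in IVF against SCNT. In this comparison 62 of the 88 were called, against 58.5% of all features tested. Of them, 50 were lower (56.8% of the 88, against 23.6% of all features) and 12 were higher (13.6%, against 34.9%), and 26 did not pass. The median log2 difference of the members was -1.07, beside 0.39 over all features. All 3 IVF libraries stood below all 3 SCNT libraries for 53 members (60.2%, against 25.9% of all features) and above them for 10 (11.4%, against 38.5%). At least 4-fold lower calls, on the same scale, were made for 31 members (35.2%, against 10.5%). Without SCNT replicate 3, 7 members were called higher in place of 12. With median-ratio scaling, which moves the median of all features by -0.33, the calls over all features were 4119 higher and 4369 lower, beside 5182 and 3498 without it. The summed oocyte and embryo markers moved with this comparison, and all 9 were called higher in IVF. Their part in the fall of the members was not tested.

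A smaller number of members fell in KDM4E-SCNT against SCNT. Here 36 of the 88 were called, against 32.6% of all features. Of these, 32 were lower (36.4%, against 11% of all features), 4 were higher (4.55%, against 21.6%) and 52 did not pass. With median-ratio scaling 51 were lower and 1 was higher. The median log2 difference was -0.75, beside 0.32 over all features. Both KDM4E-SCNT libraries stood below all 3 SCNT libraries for 52 members (59.1%, against 21.4% of all features) and above them for 10 (11.4%, against 38.1%). At least 4-fold lower calls were made for 3 members, NDUFA5, NDUFAF5 and SDHD (3.41%, against 2.16%). The number of calls depended on 1 library. Without KDM4E-SCNT replicate 2, 13 members were called, all lower, and the median was -0.85. Of the 36 calls, 11 were kept in that fit and 25 were lost, where 30 were kept without replicate 1. The 11 were NDUFA5, NDUFA12, NDUFA13, NDUFB3, NDUFAF5, UQCR10, COX4I1, COX7A2, ATP5J2, ATP5L and ATP5O. Of the 4 higher calls, 1 was left without SCNT replicate 3. Over all features the calls were 3208 higher and 1636 lower, beside 2104 and 2769 with median-ratio scaling and 2092 and 2108 with quantile normalization. Of the 9 oocyte and embryo markers, 8 were called higher in KDM4E-SCNT than in SCNT, and their part in the result was not tested.

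Set against IVF, KDM4E-SCNT had higher levels of a minority of the members. In this comparison 20 of the 88 were called, against 6.52% of all features, and all 20 were higher (22.7%, against 5.9% of all features). The median was 0.44, beside -0.03 over all features. Both KDM4E-SCNT libraries stood above all 3 IVF libraries for 37 members (42%, against 20% of all features) and below them for 5 (5.68%, against 13.9%). At least 4-fold higher calls were made for 10 members (11.4%, against 3.05%). By limma no member was called lower (0.62% of all features were), where 2 had an unadjusted p under 0.05, and 2 were called lower without KDM4E-SCNT replicate 2 and 1 without IVF replicate 2. Without KDM4E-SCNT replicate 1, 8 members were called higher, with 7 of the 20 calls kept and 13 lost. The 7 were NDUFA5, NDUFB3, NDUFB11, UQCR10, COX4I1, COX7A2 and ATP5E. Without replicate 2, 17 were kept. The 3 comparisons share libraries, so their counts are not independent of each other. For 69 of the 88 members (78.4%) the KDM4E-SCNT mean lay between the IVF and SCNT means, as it did for 67.9% of all features.

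**Figure D2:**
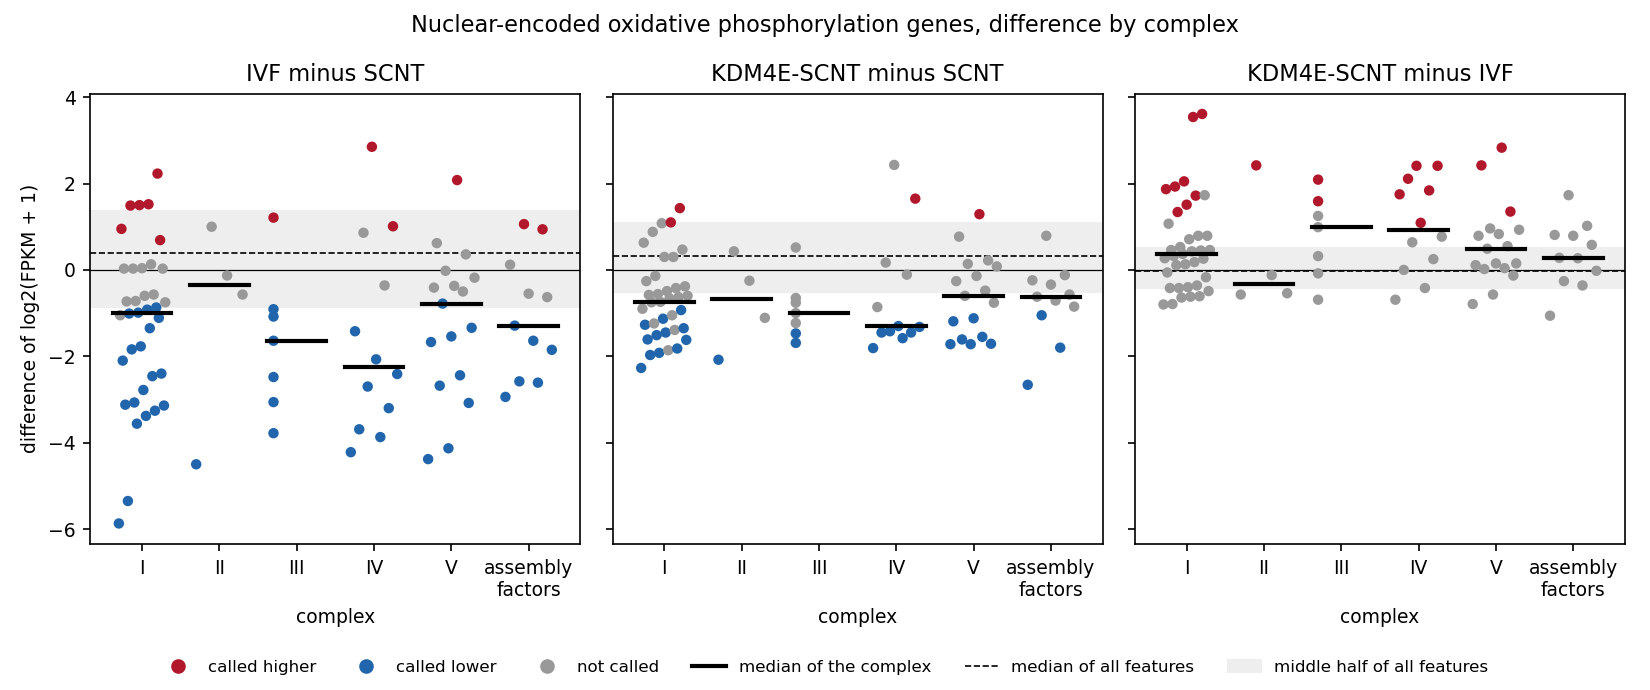
Difference of log2(FPKM + 1) for each of the 88 tested genes (points) by complex, in 3 panels, with IVF minus SCNT on the left, KDM4E-SCNT minus SCNT in the centre and KDM4E-SCNT minus IVF on the right. Blue points were called lower and red points higher (limma adjusted p under 0.05), black bars are medians of a complex, and the dashed line and grey band are the median and middle 50% of all features; complex IV has the lowest median against SCNT, at -2.24 for IVF and -1.31 for KDM4E-SCNT.

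The order of the KDM4E-SCNT libraries was not the same for members lower and members higher in IVF. Of the 50 members lower in IVF than in SCNT, KDM4E-SCNT replicate 1 stood above replicate 2 for 33. Of the 12 higher in IVF, replicate 2 stood above replicate 1 for 10. Over all features tested, replicate 2 was above replicate 1 for 8625 and below it for 5999 of 14839. All features were not split by their direction in IVF, so whether this order is particular to the members was not tested.

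The counts by complex below are to be read against the shares of all features. These were 34.9% higher and 23.6% lower in IVF, and 21.6% higher and 11% lower in KDM4E-SCNT, each against SCNT. In KDM4E-SCNT against IVF they were 5.9% higher and 0.62% lower. Complex I has a conserved catalytic core, to which 7 of the nuclear genes belong, and a large set of accessory subunits around it. In IVF against SCNT, 20 of its 37 genes were lower, 6 higher and 11 not called, with a median of -0.99. In KDM4E-SCNT against SCNT, 12 were lower and 2 higher (median -0.74), and against IVF 8 were higher and none lower (median 0.37). The median against SCNT was -1.21 with median-ratio scaling. Without KDM4E-SCNT replicate 2, 4 of the 14 calls against SCNT were kept and the median against IVF was 0.15, with 5 genes higher and 2 lower. Without replicate 1, 3 of the 8 calls against IVF were kept. By the part of the enzyme, the medians of IVF minus SCNT were -0.90 for the NADH-oxidising N module (10 genes), -1.38 for the ubiquinone-binding Q module (6 genes), -0.73 for the near part of the membrane arm (9 genes) and -1.48 for its far part (12 genes). With quantile normalization those of the N module and the near part were -0.58 and -0.23, and with median-ratio scaling that of the near part was -1.18.

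NDUFA5 (ENSBTAG00000009334.5; chromosome 4, 88657784 to 88673594, build UMD3.1), an accessory subunit of the Q module, had 105 and 105 FPKM in KDM4E-SCNT, 4.57, 11.9 and 8.25 FPKM in IVF, and 603, 478 and 461 FPKM in SCNT. The 3 groups did not overlap, with IVF lowest and SCNT highest. The log2 difference was -5.87 ± 0.32 (limma adjusted p = 2.08e-07) for IVF minus SCNT, -2.27 ± 0.36 (limma adjusted p = 0.00129) for KDM4E-SCNT minus SCNT and 3.61 ± 0.36 (limma adjusted p = 0.000123) for KDM4E-SCNT minus IVF. NDUFA13, also known as a regulator of cell death and an accessory subunit of the near membrane arm, had 59.5 and 72.97 FPKM in KDM4E-SCNT, 29.8, 20.04 and 27.2 FPKM in IVF, and 302, 262 and 201 FPKM in SCNT. Its groups also stood apart in the order IVF, KDM4E-SCNT, SCNT. The difference of IVF from SCNT was -3.26 ± 0.28 (limma adjusted p = 2.51e-06) and that of KDM4E-SCNT from SCNT -1.92 ± 0.31 (limma adjusted p = 0.0015). NDUFA12, an accessory subunit of the N module, had 56.8 and 58.8 FPKM in KDM4E-SCNT, 56.1, 64.5 and 40.9 FPKM in IVF, and 294, 197 and 209.6 FPKM in SCNT. Here the KDM4E-SCNT values lay within the IVF range and both groups were below SCNT, at -2.10 ± 0.28 (limma adjusted p = 5.35e-05) in IVF and -1.97 ± 0.31 (limma adjusted p = 0.00133) in KDM4E-SCNT.

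Accessory subunits of the far membrane arm, which carries much of the proton pumping, held several of the lowest values. NDUFB11 (ENSBTAG00000047278.1; chromosome X, 90791402 to 90793658), which is X-linked, had 157 and 52.8 FPKM in KDM4E-SCNT, 12, 2.65 and 9.58 FPKM in IVF, and 415, 288 and 284 FPKM in SCNT. The groups did not overlap. Libraries differed by the largest factor within IVF, by a smaller factor within KDM4E-SCNT and by the smallest within SCNT. The log2 difference was -5.35 ± 0.48 (limma adjusted p = 3.45e-06) for IVF minus SCNT, -1.82 ± 0.54 (limma adjusted p = 0.0224) for KDM4E-SCNT minus SCNT and 3.54 ± 0.54 (limma adjusted p = 0.00184) for KDM4E-SCNT minus IVF. The second call was lost in 3 of the 19 alternatives. The other X-linked member, NDUFA1, of the near membrane arm, had 542 and 395 FPKM in KDM4E-SCNT, 369.6, 264 and 392 FPKM in IVF, and 593, 564 and 399 FPKM in SCNT. It was not called in any comparison, and its IVF minus SCNT difference was -0.60 ± 0.27 (limma adjusted p = 0.0724). NDUFB9 had 573 and 279.7 FPKM in KDM4E-SCNT, 93.5, 121 and 113 FPKM in IVF, and 855, 1134 and 932 FPKM in SCNT. NDUFB2 had 567 and 214 FPKM in KDM4E-SCNT, 89.7, 67.6 and 95.1 FPKM in IVF, and 920.2, 1396 and 763 FPKM in SCNT. For both genes IVF was lowest, SCNT highest and KDM4E-SCNT replicate 1 above replicate 2, with no overlap between groups. The IVF minus SCNT difference was -3.14 ± 0.29 (limma adjusted p = 4.08e-06) for NDUFB9 and -3.56 ± 0.36 (limma adjusted p = 7.19e-06) for NDUFB2. NDUFB3 had 52.5 and 76.7 FPKM in KDM4E-SCNT, 24, 20.5 and 20.6 FPKM in IVF, and 247, 144 and 212 FPKM in SCNT. Its difference of IVF from SCNT was -3.12 ± 0.29 (limma adjusted p = 4.37e-06), again with no overlap between any 2 groups. NDUFB4 was among the most abundant genes of complex I and had 712 and 296 FPKM in KDM4E-SCNT, 416, 269.8 and 333 FPKM in IVF, and 527, 887 and 358 FPKM in SCNT. Its groups overlapped and it was not called.

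Among the genes of complex I, 6 ran the other way in IVF. NDUFV2 (ENSBTAG00000004871.4; chromosome 24, 41855938 to 41874838), an iron-sulfur subunit of the N module, had 51.5 and 153 FPKM in KDM4E-SCNT, 176, 169 and 125 FPKM in IVF, and 43.2, 29.04 and 26.9 FPKM in SCNT. Both other groups stood above SCNT, and KDM4E-SCNT replicate 1 was much nearer to SCNT than replicate 2. The difference was 2.23 ± 0.38 (limma adjusted p = 0.000302) for IVF minus SCNT and 1.43 ± 0.42 (limma adjusted p = 0.0214) for KDM4E-SCNT minus SCNT, and the second call was lost in 5 of the 19 alternatives, among them those without KDM4E-SCNT replicate 2 and without SCNT replicate 2 or 3. Its partner NDUFV1, which binds the flavin that accepts electrons from NADH, had 4.55 and 4.45 FPKM in KDM4E-SCNT, 3.21, 1.52 and 2.05 FPKM in IVF, and 11.8, 4.77 and 6.22 FPKM in SCNT. NDUFV1 was lower in IVF, at -1.35 ± 0.38 (limma adjusted p = 0.00847), a call lost without SCNT replicate 1. NDUFB6, of the far membrane arm, had 262 and 459.9 FPKM in KDM4E-SCNT, 448, 552 and 407 FPKM in IVF, and 161, 190.4 and 137 FPKM in SCNT. It was higher than SCNT in IVF, at 1.52 ± 0.28 (limma adjusted p = 0.000543), and in KDM4E-SCNT, at 1.10 ± 0.31 (limma adjusted p = 0.0183), where the call was lost in 3 of the 19 alternatives. NDUFA8, of the near membrane arm, had 62.5 and 102 FPKM in KDM4E-SCNT, 112, 102 and 108 FPKM in IVF, and 61.9, 48.6 and 16.8 FPKM in SCNT. It was called higher in IVF, at 1.5 ± 0.41 (limma adjusted p = 0.00739), with no overlap between IVF and SCNT. NDUFAB1, the mitochondrial acyl carrier protein, had 534 and 526 FPKM in KDM4E-SCNT, 523, 625 and 516 FPKM in IVF, and 385, 358 and 293 FPKM in SCNT. It differed between IVF and SCNT by 0.69 ± 0.23 (limma adjusted p = 0.0228), a call lost in 5 of the 19 alternatives, among them median-ratio and upper-quartile scaling and those without IVF replicate 2 or SCNT replicate 3. NDUFV3, a small N module subunit, had 56.6 and 91.5 FPKM in KDM4E-SCNT, 164, 55.9 and 113 FPKM in IVF, and 58.7, 47.4 and 49.8 FPKM in SCNT. Its IVF range reached into that of SCNT, and the call, at 0.95 ± 0.37 (limma adjusted p = 0.0411), was lost in 9 of the 19 alternatives.

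Complex II, succinate dehydrogenase, is the complex whose 4 subunits are all nuclear-encoded, and 1 of the 4 was called in each comparison. That gene was lower in IVF than in SCNT (25% of the 4, near the 23.6% of all features). Over all features, 58.5% were called there. SDHD (ENSBTAG00000016266.5; chromosome 15, 22722376 to 22733137), a membrane anchor, had 39.9 and 20.1 FPKM in KDM4E-SCNT, 3.95, 3.20 and 6.90 FPKM in IVF, and 173, 71.9 and 149.7 FPKM in SCNT. The groups stood apart, with IVF lowest. The log2 difference was -4.50 ± 0.40 (limma adjusted p = 3.23e-06) for IVF minus SCNT, -2.08 ± 0.45 (limma adjusted p = 0.00522) for KDM4E-SCNT minus SCNT and 2.42 ± 0.45 (limma adjusted p = 0.00561) for KDM4E-SCNT minus IVF. The second call was lost without KDM4E-SCNT replicate 2 and the third without KDM4E-SCNT replicate 1. SDHC, the other membrane anchor, had 26.4 and 45.5 FPKM in KDM4E-SCNT, 41.2, 30.4 and 42.9 FPKM in IVF, and 55.8, 34.6 and 36.7 FPKM in SCNT. Its groups overlapped, and the IVF minus SCNT difference was -0.13 ± 0.32 (limma adjusted p = 0.736). SDHA, the flavoprotein that oxidises succinate, had 4.39 and 8.80 FPKM in KDM4E-SCNT, 12.6, 5.47 and 13.2 FPKM in IVF, and 5.34, 5.79 and 2.64 FPKM in SCNT. SDHB, the iron-sulfur subunit, had 19.2 and 36.3 FPKM in KDM4E-SCNT, 72.2, 22.7 and 35.5 FPKM in IVF, and 96.4, 26.6 and 76.1 FPKM in SCNT. Neither separated the groups. Their IVF minus SCNT differences were 1.00 ± 0.42 (limma adjusted p = 0.0546) for SDHA and -0.57 ± 0.50 (limma adjusted p = 0.342) for SDHB.

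All 7 genes of complex III were called in IVF against SCNT, 6 of them lower and 1 higher, with a median of -1.64. In KDM4E-SCNT 2 were lower than in SCNT (median -1), and 2 were higher than in IVF. The median of KDM4E-SCNT minus IVF was 0.99, but 0.14 without KDM4E-SCNT replicate 2, 0.48 with a pseudocount of 5 and 0.66 with the stricter filter of 5 FPKM in 3 libraries. Without KDM4E-SCNT replicate 1, 1 of the 2 calls against IVF was kept, and without replicate 2, 1 of the 2 against SCNT. UQCR10, a small accessory subunit, had 192 and 108 FPKM in KDM4E-SCNT, 34.7, 29.7 and 35.02 FPKM in IVF, and 440.2, 487 and 469.9 FPKM in SCNT. The SCNT values were close together and far above both other groups, which did not overlap. The log2 difference was -3.78 ± 0.27 (limma adjusted p = 8.52e-07) for IVF minus SCNT, -1.69 ± 0.31 (limma adjusted p = 0.00223) for KDM4E-SCNT minus SCNT and 2.09 ± 0.31 (limma adjusted p = 0.00147) for KDM4E-SCNT minus IVF. UQCRB, which takes part in ubiquinone binding, had 233 and 163 FPKM in KDM4E-SCNT, 58.9, 109.8 and 40.6 FPKM in IVF, and 695, 484 and 469 FPKM in SCNT. Its differences were -3.06 ± 0.35 (limma adjusted p = 1.77e-05) for IVF minus SCNT, -1.47 ± 0.39 (limma adjusted p = 0.0136) for KDM4E-SCNT minus SCNT and 1.59 ± 0.39 (limma adjusted p = 0.0286) for KDM4E-SCNT minus IVF. The second call was lost in 3 of the 19 alternatives and the third in 8, among them a fit of the 2 groups, no filter and the fits without KDM4E-SCNT replicate 1, IVF replicate 1 or 3, or SCNT replicate 3. The core proteins UQCRC1 and UQCRC2 were both lower in IVF. UQCRC1 was low throughout, with 2.17 and 3.61 FPKM in KDM4E-SCNT, 0.36, 0.27 and 1.38 FPKM in IVF, and 16.8, 4.69 and 6.08 FPKM in SCNT, and its difference was -2.48 ± 0.46 (limma adjusted p = 0.000545). UQCRC2 had 30.98 and 32.2 FPKM in KDM4E-SCNT, 37.8, 30.3 and 32.8 FPKM in IVF, and 71.2, 39.8 and 92.1 FPKM in SCNT, and its difference, -0.91 ± 0.32 (limma adjusted p = 0.0279), was lost in 5 of the 19 alternatives, without SCNT replicate 1 or 3, without IVF replicate 2 or 3 and with mitochondrially encoded features removed. UQCRQ, an accessory subunit, had 131 and 168 FPKM in KDM4E-SCNT, 113, 118 and 122.97 FPKM in IVF, and 314, 258 and 196 FPKM in SCNT and a difference of -1.08 ± 0.26 (limma adjusted p = 0.00358). UQCRH, the hinge protein that helps cytochrome c to dock, was the higher gene and had 218 and 322 FPKM in KDM4E-SCNT, 441, 370.1 and 485 FPKM in IVF, and 217, 154 and 188 FPKM in SCNT. IVF stood above SCNT in all libraries, by 1.21 ± 0.26 (limma adjusted p = 0.00166), while the KDM4E-SCNT values were not called against either group.

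Complex IV, cytochrome c oxidase, had the lowest median of the 5 complexes in IVF against SCNT, at -2.24, with 8 of 12 tested genes lower and 2 higher. Its subunits come in widely expressed and tissue-restricted forms. The 7 widely expressed nuclear subunits among the members (COX4I1, COX5A, COX5B, COX6A1, COX7A2, COX7C and NDUFA4) were all called lower in IVF than in SCNT, each by at least 4-fold, with a median log2 difference of -3.20. In KDM4E-SCNT 6 of the 7 were called lower than in SCNT (median -1.45) and 6 higher than in IVF (median 1.84). Without KDM4E-SCNT replicate 2, 2 of the 6 calls against SCNT were kept, and without replicate 1, 2 of the 6 against IVF. All 7 were higher in KDM4E-SCNT replicate 1 than in replicate 2. Features outside the symbol rule did not all follow the 7 in IVF minus SCNT. Those described as COX6B1 (479 bp, chromosome 5) and COX8A (448 bp) were lower, at -3.21 ± 0.35 and -2.19 ± 0.30. The feature described as COX6C was not called, at 0.18 ± 0.26, and loci described as COX7B went both ways, at -5.19 ± 0.46 and 1.76 ± 0.29.

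COX7A2 (ENSBTAG00000005096.4; chromosome 9, 15041836 to 15046972), a small membrane subunit, had 669.6 and 390.1 FPKM in KDM4E-SCNT, 95.05, 108 and 83.9 FPKM in IVF, and 1572, 1386 and 1265 FPKM in SCNT. The groups did not overlap. The log2 difference was -3.87 ± 0.26 (limma adjusted p = 5.77e-07) for IVF minus SCNT, -1.45 ± 0.30 (limma adjusted p = 0.00382) for KDM4E-SCNT minus SCNT and 2.41 ± 0.30 (limma adjusted p = 0.000515) for KDM4E-SCNT minus IVF. COX7C (ENSBTAG00000039555.2; chromosome 7, 88648457 to 88650528), another small membrane subunit, had 433 and 207 FPKM in KDM4E-SCNT, 93.8, 43.4 and 41.8 FPKM in IVF, and 1126, 1244 and 833 FPKM in SCNT. Its differences were -4.22 ± 0.36 (limma adjusted p = 2.51e-06) for IVF minus SCNT, -1.81 ± 0.41 (limma adjusted p = 0.00617) for KDM4E-SCNT minus SCNT and 2.41 ± 0.41 (limma adjusted p = 0.00329) for KDM4E-SCNT minus IVF, and the second call was lost without KDM4E-SCNT replicate 2 and the third without KDM4E-SCNT replicate 1. NDUFA4, which is named for complex I and works in complex IV, had 924 and 406 FPKM in KDM4E-SCNT, 184, 182 and 180.2 FPKM in IVF, and 1648, 1989 and 1435 FPKM in SCNT. The 3 IVF values were nearly equal, and all of them were below KDM4E-SCNT, which was below SCNT. The difference of IVF from SCNT was -3.20 ± 0.30 (limma adjusted p = 4.12e-06). COX4I1, the subunit at which ATP is known to regulate the enzyme, had 135 and 94.8 FPKM in KDM4E-SCNT, 24.9, 25.1 and 26.1 FPKM in IVF, and 443, 270.2 and 326 FPKM in SCNT. Its differences were -3.69 ± 0.28 (limma adjusted p = 1.06e-06) for IVF minus SCNT, -1.58 ± 0.31 (limma adjusted p = 0.00328) for KDM4E-SCNT minus SCNT and 2.11 ± 0.31 (limma adjusted p = 0.00149) for KDM4E-SCNT minus IVF. The COX4I1 locus overlaps that of EMC8 by 805 bp, and EMC8 stood at 15.9 and 26.5 FPKM in KDM4E-SCNT, 17.8 to 26.8 FPKM in IVF and 15.0 to 24.3 FPKM in SCNT.

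COX5A, on the matrix side of the enzyme, had 82.9 and 81.9 FPKM in KDM4E-SCNT, 48.8, 50.7 and 44.2 FPKM in IVF, and 278, 152 and 202 FPKM in SCNT. It was lower than SCNT in IVF, at -2.07 ± 0.28 (limma adjusted p = 5.63e-05), and in KDM4E-SCNT, at -1.30 ± 0.31 (limma adjusted p = 0.00835). COX5B, which binds zinc, had 230.2 and 199 FPKM in KDM4E-SCNT, 73.9, 40.6 and 68.2 FPKM in IVF, and 376, 477 and 326 FPKM in SCNT. It differed between IVF and SCNT by -2.70 ± 0.29 (limma adjusted p = 1.16e-05) and between KDM4E-SCNT and IVF by 1.84 ± 0.33 (limma adjusted p = 0.00424), and it was the member of the 7 not called between KDM4E-SCNT and SCNT, at -0.86 ± 0.33 (limma adjusted p = 0.0596). COX6A1 had 378 and 256 FPKM in KDM4E-SCNT, 138, 145 and 155 FPKM in IVF, and 652, 991 and 737 FPKM in SCNT, with a difference of -2.41 ± 0.26 (limma adjusted p = 1.17e-05) for IVF minus SCNT. Its call between KDM4E-SCNT and IVF, at 1.09 ± 0.29 (limma adjusted p = 0.0429), was lost in 13 of the 19 alternatives. For all 3 genes the groups were in the order IVF, KDM4E-SCNT, SCNT without overlap.

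Among the tissue-restricted forms and the related COX7A2L, 2 were called higher and 1 lower in IVF than in SCNT. COX6B2, known as a testis form in humans, had 46.1 and 41.9 FPKM in KDM4E-SCNT, 27.1, 18.5 and 42.6 FPKM in IVF, and 18.4, 11.4 and 11.2 FPKM in SCNT. It was higher in IVF than in SCNT, at 1.01 ± 0.35 (limma adjusted p = 0.0244), and in KDM4E-SCNT than in SCNT, at 1.65 ± 0.39 (limma adjusted p = 0.00756). The first of these calls was lost with median-ratio scaling, with quantile normalization, without IVF replicate 3 and without SCNT replicate 2 or 3, and the second without KDM4E-SCNT replicate 2. COX7A1, the heart and muscle form of COX7A2, had 9.14 and 16.8 FPKM in KDM4E-SCNT, 20.4, 9.79 and 24.04 FPKM in IVF, and 0, 14.4 and 0 FPKM in SCNT. It was listed at 0 in 2 SCNT libraries and lay inside the IVF range in the other, and its IVF call (limma adjusted p = 0.0148) was lost without SCNT replicate 1 or SCNT replicate 3. COX4I2, the lung form of COX4I1, was listed at 0 in both KDM4E-SCNT and all 3 IVF libraries, and SCNT had 1.51, 1.30 and 2.31 FPKM. COX6A2, the heart and muscle form of COX6A1, was listed at 0 in 7 libraries and had 0.45 FPKM in SCNT replicate 1. NDUFA4L2, a relative of NDUFA4 known to respond to low oxygen, reached at most 1.04 FPKM, and COX8B, a heart and muscle form, at most 2.92 FPKM. COX7A2L, which joins complexes III and IV into supercomplexes, had 527 and 473 FPKM in KDM4E-SCNT, 1372, 390.3 and 988 FPKM in IVF, and 477, 441 and 416 FPKM in SCNT. It was not called in any comparison, and IVF replicate 2 stood apart from the other IVF libraries.

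**Figure D3:**
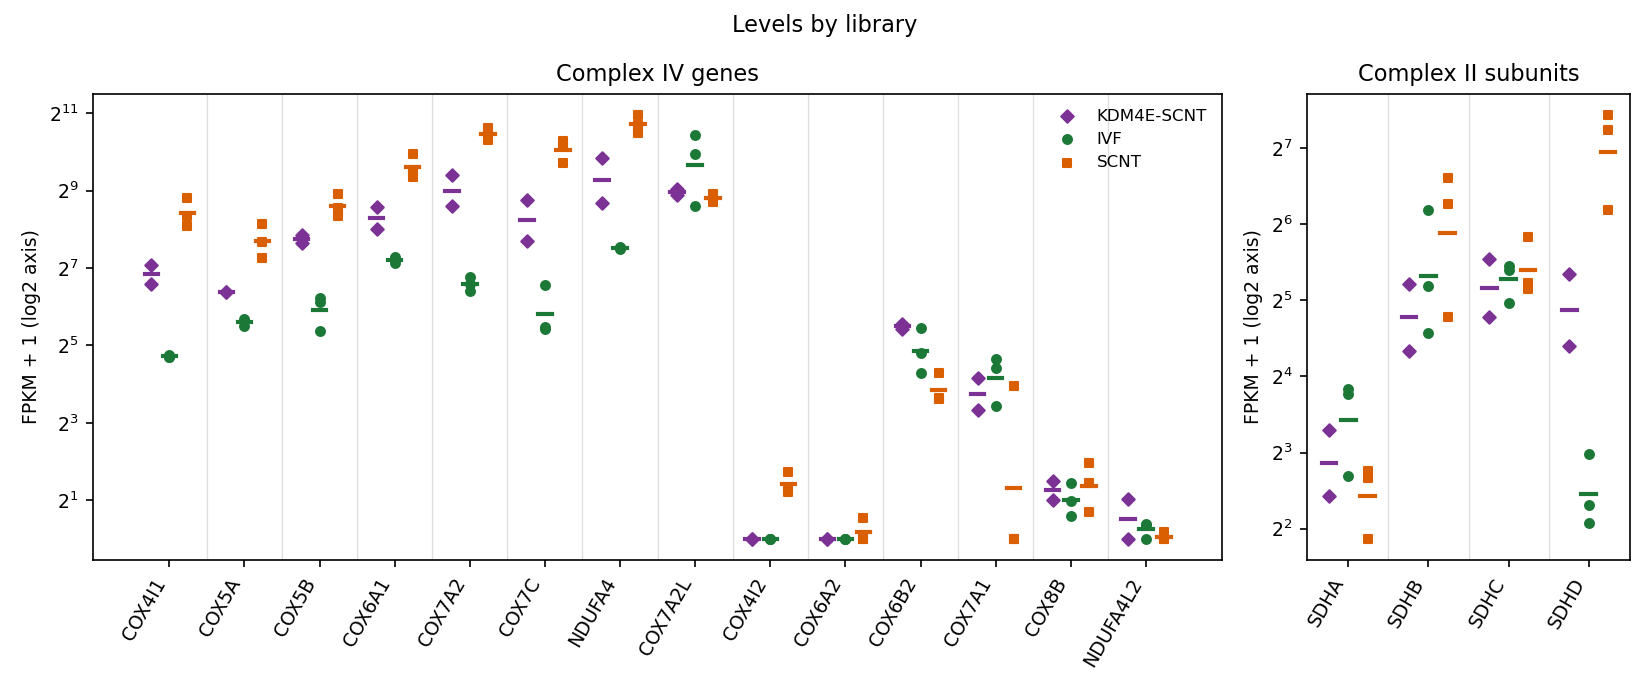
FPKM + 1 on a log2 axis of genes of complexes IV and II in each library, with 1 symbol per library, KDM4E-SCNT left, IVF in the middle and SCNT right, and bars at the mean of the log2 values. COX7A2, COX7C, NDUFA4 and SDHD separate the groups, with IVF lowest, while COX7A2L, COX6B2, SDHA and SDHC do not show that order.

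Complex V, the ATP synthase, had 9 of 17 genes lower, 1 higher and 7 not called in IVF against SCNT, with a median of -0.78. In KDM4E-SCNT 7 were lower and 1 higher than in SCNT (median -0.60), and 3 were higher than in IVF (median 0.49). The IVF minus SCNT median was -0.36 with quantile normalization and -1.23 with median-ratio scaling, which gave -0.95 for KDM4E-SCNT minus SCNT. The KDM4E-SCNT minus IVF median was 0.19 without KDM4E-SCNT replicate 2 and 0.18 without IVF replicate 2. Without KDM4E-SCNT replicate 2, 3 of the 8 calls against SCNT were kept, and without replicate 1, 1 of the 3 against IVF. In the catalytic F1 head, ATP5E, the epsilon subunit, had 220.0 and 80.97 FPKM in KDM4E-SCNT, 23.01, 21.6 and 11.5 FPKM in IVF, and 419, 339 and 425 FPKM in SCNT. The groups stood apart, with differences of -4.38 ± 0.38 (limma adjusted p = 2.5e-06) for IVF minus SCNT, -1.55 ± 0.42 (limma adjusted p = 0.015) for KDM4E-SCNT minus SCNT and 2.83 ± 0.42 (limma adjusted p = 0.00155) for KDM4E-SCNT minus IVF. The second call was lost in 3 of the 19 alternatives. ATP5B, the catalytic beta subunit, had 82.9 and 61.5 FPKM in KDM4E-SCNT, 66.5, 15.3 and 60.4 FPKM in IVF, and 267, 189 and 212 FPKM in SCNT. It was lower in IVF, at -2.44 ± 0.45 (limma adjusted p = 0.000584), with IVF replicate 2 lowest, and in KDM4E-SCNT, at -1.61 ± 0.51 (limma adjusted p = 0.0288), a call lost in 6 of the 19 alternatives, among them those without KDM4E-SCNT replicate 1 or 2 and without SCNT replicate 1 or 3. ATP5A1, the alpha subunit that alternates with beta in the head, had 159 and 152 FPKM in KDM4E-SCNT, 140.0, 154 and 167 FPKM in IVF, and 292, 173 and 202 FPKM in SCNT. It was not called, at -0.50 ± 0.27 (limma adjusted p = 0.121) for IVF minus SCNT. ATP5C1 and ATP5D, the gamma and delta subunits, were not called in any of the 3 comparisons.

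In the peripheral stalk, which holds the head in place, ATP5H had 185 and 79.5 FPKM in KDM4E-SCNT, 16.2, 35.9 and 17.96 FPKM in IVF, and 475, 309.8 and 434 FPKM in SCNT. ATP5O, which joins the stalk to the head, had 156 and 147 FPKM in KDM4E-SCNT, 75.6, 88.6 and 69.9 FPKM in IVF, and 690.3, 407 and 454 FPKM in SCNT. In both genes SCNT was highest, and IVF was lowest without overlap. The IVF minus SCNT difference was -4.13 ± 0.38 (limma adjusted p = 3.73e-06) for ATP5H and -2.68 ± 0.27 (limma adjusted p = 7.24e-06) for ATP5O, and the KDM4E-SCNT minus SCNT difference was -1.71 ± 0.42 (limma adjusted p = 0.0096) for ATP5H and -1.72 ± 0.30 (limma adjusted p = 0.0019) for ATP5O. The ATP5H call of KDM4E-SCNT against SCNT was lost without KDM4E-SCNT replicate 2. ATP5J, of the same stalk and the most abundant member of complex V, had 1016 and 875 FPKM in KDM4E-SCNT, 893, 981 and 873 FPKM in IVF, and 1048, 1229 and 862 FPKM in SCNT. Its groups overlapped, and the IVF minus SCNT difference was -0.18 ± 0.23 (limma adjusted p = 0.517). The remaining stalk gene, ATP5F1, was not called. GABPA, whose locus overlaps that of ATP5J by 50 bp, differed by -2.92 ± 0.40 (limma adjusted p = 6.6e-05) for IVF minus SCNT.

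The 3 accessory genes of the membrane part (ATP5I, ATP5J2 and ATP5L), which support the membrane part and its pairing into dimers, were lower than SCNT in both IVF (median -1.67) and KDM4E-SCNT (median -1.19). ATP5J2 had 117 and 96.1 FPKM in KDM4E-SCNT, 36.8, 40.1 and 46.1 FPKM in IVF, and 391, 275 and 406 FPKM in SCNT. It differed by -3.08 ± 0.27 (limma adjusted p = 2.51e-06) for IVF minus SCNT and -1.72 ± 0.30 (limma adjusted p = 0.00182) for KDM4E-SCNT minus SCNT. ATP5L had 282 and 267 FPKM in KDM4E-SCNT, 285, 259.7 and 206 FPKM in IVF, and 782, 591 and 538 FPKM in SCNT, and its KDM4E-SCNT values lay within the IVF range. The 3 genes of the c ring, which encode the same mature protein, had unlike values. Whether they share reads was not checked. ATP5G1 had 55.6 and 65.1 FPKM in KDM4E-SCNT, 43.9, 32.5 and 28.8 FPKM in IVF, and 106, 98.9 and 103 FPKM in SCNT, with a difference of -1.54 ± 0.27 (limma adjusted p = 0.00037) for IVF minus SCNT. ATP5G3 had 582 and 476 FPKM in KDM4E-SCNT, 226, 338 and 275 FPKM in IVF, and 532, 468 and 434 FPKM in SCNT, with a difference of -0.78 ± 0.25 (limma adjusted p = 0.0159), a call lost with quantile normalization, without IVF replicate 1 and without SCNT replicate 1, and its KDM4E-SCNT values overlapped those of SCNT. ATP5G2 had 34.7 and 115 FPKM in KDM4E-SCNT, 46.7, 48.9 and 39.2 FPKM in IVF, and 86.5, 39.97 and 62.1 FPKM in SCNT, and was not called. The higher gene of complex V was ATP5S, a factor associated with the synthase, with 7.96 and 16.4 FPKM in KDM4E-SCNT, 18.3, 29.4 and 16.3 FPKM in IVF, and 4.82, 4.67 and 3.03 FPKM in SCNT. Both other groups stood above SCNT, by 2.08 ± 0.37 (limma adjusted p = 0.00039) in IVF and 1.29 ± 0.41 (limma adjusted p = 0.0296) in KDM4E-SCNT. The call in KDM4E-SCNT was lost in 6 of the 19 alternatives, among them median-ratio scaling and those without KDM4E-SCNT replicate 2 and without SCNT replicate 1 or 3.

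Among the 11 assembly factors, 6 were lower (54.5%, against 23.6% of all features) and 2 higher (18.2%, against 34.9%) in IVF than in SCNT (median -1.29). In KDM4E-SCNT 3 were lower than in SCNT (27.3%, against 11%; median -0.62). Between KDM4E-SCNT and IVF none was called, where 6.52% of all features were. The KDM4E-SCNT minus SCNT median was -1.07 with median-ratio scaling, and 1 of the 3 calls was kept without KDM4E-SCNT replicate 2. The KDM4E-SCNT minus IVF median was 0.28, but 0.62 without KDM4E-SCNT replicate 2, 0.45 to 0.52 without each IVF library, and 0.17 to 0.58 with another pseudocount or the stricter filter. Without KDM4E-SCNT replicate 2, and without IVF replicate 2, 1 factor was called higher in each case. NDUFAF5, which modifies a complex I subunit during assembly, had 7.52 and 4.27 FPKM in KDM4E-SCNT, 3.35, 6.09 and 4.53 FPKM in IVF, and 37.9, 46.5 and 40.4 FPKM in SCNT. Both other groups lay far below SCNT and overlapped each other. The log2 difference was -2.94 ± 0.33 (limma adjusted p = 1.44e-05) for IVF minus SCNT, -2.66 ± 0.37 (limma adjusted p = 0.000779) for KDM4E-SCNT minus SCNT and 0.27 ± 0.37 (limma adjusted p = 0.734) for KDM4E-SCNT minus IVF. SDHAF2, which helps to attach the flavin to SDHA, had 35.7 and 18 FPKM in KDM4E-SCNT, 16.5, 8.65 and 19.2 FPKM in IVF, and 111, 76.3 and 88.2 FPKM in SCNT. SDHAF4, which binds SDHA before it joins SDHB, had 14.9 and 16.2 FPKM in KDM4E-SCNT, 7.66, 9.66 and 8.47 FPKM in IVF, and 49.1, 27.99 and 26.99 FPKM in SCNT. Both were lower in IVF, at -2.61 ± 0.36 (limma adjusted p = 6.83e-05) for SDHAF2 and -1.85 ± 0.32 (limma adjusted p = 0.00032) for SDHAF4. NDUFAF3 was listed at 0 in IVF replicate 1 and had 5.34 and 2.65 FPKM in the other IVF libraries, beside 8.38 and 8.53 FPKM in KDM4E-SCNT and 19.5, 10.9 and 19.3 FPKM in SCNT. NDUFAF7, a mitochondrial methyltransferase, was higher in IVF and had 14.6 and 27.2 FPKM in KDM4E-SCNT, 20.3, 25.1 and 27.7 FPKM in IVF, and 8.93, 12.01 and 12.7 FPKM in SCNT. NDUFAF6 was the other higher factor, at 0.94 ± 0.36 (limma adjusted p = 0.0399), and its call was lost in 11 of the 19 alternatives.

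Some partner subunits of 1 enzyme and some forms of 1 subunit did not keep 1 proportion across the groups. The following 5 pairs were chosen after their values were seen, so their ratios of FPKM are a description. Ratios of other pairs were not taken. NDUFV2 stood over NDUFV1 by 11.3 and 34.5 in KDM4E-SCNT, by 54.8, 111 and 61.1 in IVF, and by 3.67, 6.09 and 4.32 in SCNT. In IVF these ratios divide by low NDUFV1 values, of 1.52 to 3.21 FPKM, so their size is uncertain. The ratio of SDHC to SDHD was 0.663 and 2.26 in KDM4E-SCNT, 10.4, 9.5 and 6.21 in IVF, and 0.323, 0.482 and 0.245 in SCNT. That of ATP5A1 to ATP5B was 1.92 and 2.47 in KDM4E-SCNT, 2.1, 10 and 2.77 in IVF, and 1.09, 0.917 and 0.955 in SCNT. In these 3 pairs the SCNT ratios were lowest and did not overlap those of the other groups. COX7A2L over COX7A2 was 0.787 and 1.21 in KDM4E-SCNT, 14.4, 3.61 and 11.8 in IVF, and 0.304, 0.318 and 0.329 in SCNT. ATP5G3 over ATP5G1 was 10.5 and 7.31 in KDM4E-SCNT, 5.15, 10.4 and 9.56 in IVF, and 5.03, 4.73 and 4.23 in SCNT. A ratio within a library does not depend on its total, and it shows unequal change without saying which gene changed.

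**Figure D4:**
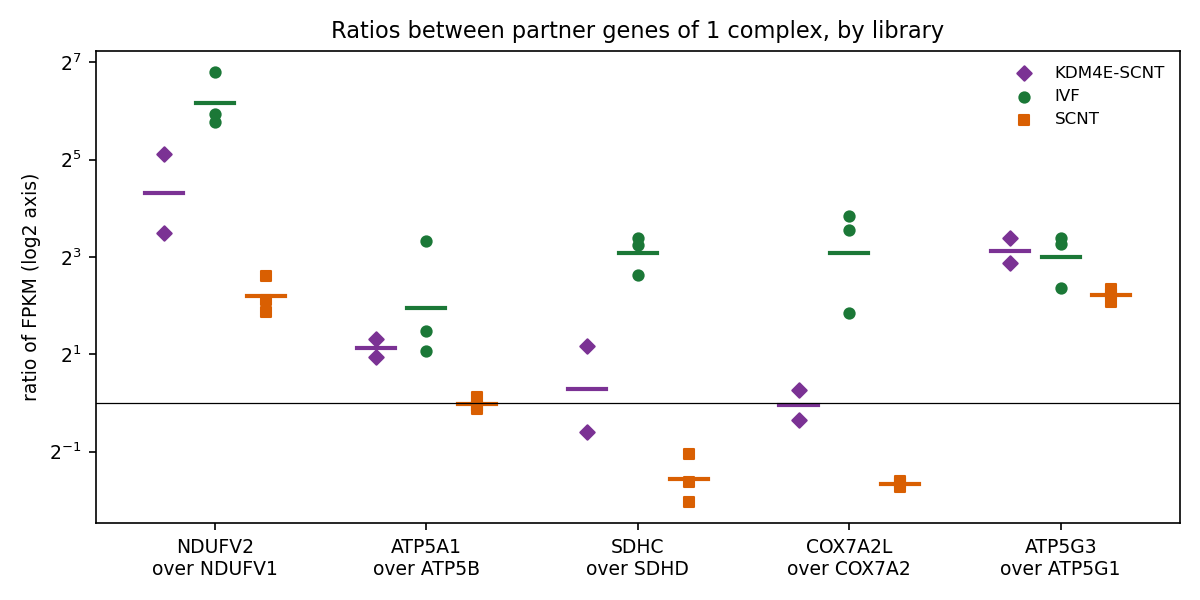
Ratio of FPKM of 5 pairs of genes in each library on a log2 axis, with KDM4E-SCNT left, IVF in the middle and SCNT right, and bars at the mean of the log2 ratios. Each of the 5 ratios is higher in all IVF and both KDM4E-SCNT libraries than in any SCNT library, for example 6.21 to 10.4 for SDHC over SDHD in IVF and 0.245 to 0.482 in SCNT.

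A further 18 features carry a description of a subunit or factor of these complexes and no member's symbol, so they stand outside the 90. The feature described as the Rieske iron-sulfur protein of complex III (ENSBTAG00000046786.1), which passes electrons on from ubiquinol, had 78.02 and 29.1 FPKM in KDM4E-SCNT, 7.27, 5.56 and 12.6 FPKM in IVF, and 199, 97.7 and 181 FPKM in SCNT. It differed by -4.08 ± 0.42 (limma adjusted p = 8.29e-06) for IVF minus SCNT and 2.43 ± 0.47 (limma adjusted p = 0.00713) for KDM4E-SCNT minus IVF. The feature ENSBTAG00000037415.2, described as COX7B, had 529 and 213 FPKM in KDM4E-SCNT, 59.9, 13.7 and 38.01 FPKM in IVF, and 1215, 1335 and 1041 FPKM in SCNT. Its IVF minus SCNT difference was -5.19 ± 0.46 (limma adjusted p = 3.09e-06), while an unnamed X-linked locus with the same description was higher in IVF, at 1.76 ± 0.29 (limma adjusted p = 0.000275). The lower locus spans 459 bp on chromosome 17 and the X-linked locus spans 4912 bp. Which of them is the COX7B gene and which a copy was not tested, so the direction of COX7B is open. COX6C, as described for ENSBTAG00000014130.2, had 747 and 854 FPKM in KDM4E-SCNT, 512, 783 and 433 FPKM in IVF, and 489, 493 and 498 FPKM in SCNT and was not called between IVF and SCNT. Near-identical copies can share reads with members such as COX7C, ATP5E and ATP5L, whose copies are among these features, and the split between them is uncertain. Loci of 8 members overlap another feature, and whether the counting used strand is not given in the sources used here.

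Other genes of the pathway, from 7 lists, are given by their counts, to be read against the shares of all features: 34.9% higher and 23.6% lower in IVF, and 21.6% higher and 11% lower in KDM4E-SCNT, each against SCNT. Of 7 electron carriers, 4 were higher and 3 lower in IVF against SCNT, and 4 higher and 3 lower in KDM4E-SCNT against SCNT. Cytochrome c itself, CYCS, had 798 and 711 FPKM in KDM4E-SCNT, 268, 333 and 361 FPKM in IVF, and 1961, 1862 and 1876 FPKM in SCNT. Its groups did not overlap, with differences of -2.57 ± 0.23 (limma adjusted p = 2.72e-06) for IVF minus SCNT, -1.33 ± 0.25 (limma adjusted p = 0.00264) for KDM4E-SCNT minus SCNT and 1.24 ± 0.25 (limma adjusted p = 0.00945) for KDM4E-SCNT minus IVF. ETFA and ETFDH, which bring electrons from fatty acid oxidation to ubiquinone, were higher in IVF by 2.76 ± 0.29 (limma adjusted p = 9.6e-06) and 2.41 ± 0.37 (limma adjusted p = 0.000157). Of 15 assembly factors of complex IV, 10 were lower and 2 higher in IVF, and 5 were lower and 1 higher in KDM4E-SCNT, each against SCNT. HIGD1A, which associates with complex IV, had 1319.9 and 647 FPKM in KDM4E-SCNT, 390.3, 286 and 383 FPKM in IVF, and 1958, 2895 and 2061 FPKM in SCNT. Of 10 assembly factors of complex I outside the symbol rule, 3 were lower and 3 higher in IVF, near the shares of all features, and 3 were lower and none higher in KDM4E-SCNT. Of 4 factors of complex III, 2 were lower and 1 higher in IVF, and 1 was lower in KDM4E-SCNT. Of 5 factors and inhibitors of complex V, 2 were lower in IVF and the same number in KDM4E-SCNT, among them TMEM70, which helps to build the c ring and had 15.6 and 10.3 FPKM in KDM4E-SCNT, 3.91, 3.74 and 2.13 FPKM in IVF, and 69.9, 48.99 and 69.5 FPKM in SCNT.

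Of 14 regulators of mitochondrial biogenesis, 5 were higher and 6 lower in IVF, and 4 were higher and 2 lower in KDM4E-SCNT, each against SCNT. The counts of higher genes were near the shares of all features. PPARGC1A, a coactivator of genes of oxidative phosphorylation, had 44.4 and 58.9 FPKM in KDM4E-SCNT, 45.03, 62.1 and 52.6 FPKM in IVF, and 5.90, 10.8 and 9.54 FPKM in SCNT. It was higher than SCNT in IVF, at 2.50 ± 0.31 (limma adjusted p = 3.02e-05), and in KDM4E-SCNT, at 2.45 ± 0.35 (limma adjusted p = 0.000847). TFAM, which packages and transcribes mitochondrial DNA, had 109 and 48.3 FPKM in KDM4E-SCNT, 18.1, 17.98 and 39.9 FPKM in IVF, and 129.9, 205 and 154 FPKM in SCNT. It was lower in IVF, at -2.71 ± 0.39 (limma adjusted p = 8.33e-05). Of 18 genes of pyruvate dehydrogenase and the citric acid cycle, which supply the NADH and succinate, 8 were lower and 5 higher in IVF, and 5 were lower and 3 higher in KDM4E-SCNT. DLD, the subunit shared by several of these dehydrogenases, had 249 and 76.8 FPKM in KDM4E-SCNT, 45.2, 18.1 and 40.7 FPKM in IVF, and 476, 436 and 478 FPKM in SCNT. Between KDM4E-SCNT and IVF, 1 electron carrier, 2 factors of complex IV, 2 of complex V, 2 regulators and 2 genes of the cycle were called, all higher, and none of the complex I or III factors. Over all features, 5.9% were called higher and 0.62% lower in this comparison.

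Markers of other cell types that a pool could hold were examined too. Their calls are to be read against the shares of all features. These were 34.9% higher and 23.6% lower in IVF, and 21.6% higher and 11% lower in KDM4E-SCNT, each against SCNT. The summed level of 13 fibroblast markers was 61.0 to 341 FPKM in KDM4E-SCNT, 24.2 to 48.1 FPKM in IVF and 95.3 to 167 FPKM in SCNT, with COL6A1 and TAGLN listed at 0 in all IVF libraries and THY1 in all SCNT libraries. Of 10 tested, 3 were lower and 1 higher in IVF, and 1 was higher in KDM4E-SCNT, each against SCNT. The 7 cumulus and granulosa cell markers summed to 45.8 to 99.2 FPKM in KDM4E-SCNT, 101 to 163 FPKM in IVF and 16.5 to 25 FPKM in SCNT, where PTX3 and FSHR were listed at 0, and 3 of 4 tested were higher and 1 lower in IVF. The 6 sperm markers summed to 47.0 to 52.8 FPKM in KDM4E-SCNT, 65.8 to 89.0 FPKM in IVF and 23.4 to 41.6 FPKM in SCNT, and 2 of 5 tested were higher and 1 lower in IVF. The 7 blood markers summed to 52.6 to 80.7 FPKM in KDM4E-SCNT, 16.9 to 26.4 FPKM in IVF and 72.8 to 143 FPKM in SCNT, and 3 of 6 tested were higher and 2 lower in IVF. Their part in the results was not tested.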

How the data were processed

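RNA-seq was made from 8 libraries of 8-cell bovine embryo pools on an Illumina HiSeq, per the labels' protocols: 2 of KDM4E-SCNT, 3 of IVF and 3 of SCNT. The authors deposited 1 table per library with FPKM values, which are relative to transcript length and library size. The submitters' processing notes give the build UMD3.1 and, with no order, RSEM 1.2.12, Bowtie2 2.2.5, StringTie 1.0.4, HISAT 0.1.6 and bcl2fastq 2.16. No counts were used, so depth is unknown, no interval for counting error is given and no count model was used.

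Values were analysed as log2(FPKM + 1), with features of at least 1 FPKM in at least 2 libraries, which kept 14839 of 21258. All 8 libraries entered 1 fit in limma 3.58.1 (R 4.3.3) with a mean-variance trend and robust moderation, with 3 contrasts and Benjamini-Hochberg adjustment over all features tested at a threshold of 0.05. The steps were tested on simulated data. Python 3.11.15, pandas 2.3.3, scipy 1.17.1 and matplotlib 3.10.9 were used for summaries and figures. FPKM shares depend on all other transcripts of a library, so other scalings were tried, with other pseudocounts and filters, a fit of 2 groups, a fit without trend or robust moderation, a replicate block and each library left out.

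The members, the lists of pathway genes and the lists of markers were chosen with earlier results of these data known. The genes named by rule were, per complex and comparison, the 4 with the smallest p and those called against the majority, and per complex the 3 most abundant, with all of complex II, fixed sets of related forms, X-linked genes and genes listed at 0. Up to 4 genes per list could be named. The values of 1 member are not reported here, though it is in the counts and medians. Other genes named with values were chosen after their values were seen.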

Additional observations from a re-analysis of the deposited data

How the results depend on the processing

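No called member turned its sign in any of the 19 alternatives. In IVF against SCNT the members' median was -0.87 with a pseudocount of 5 and -1.51 with median-ratio scaling, where 7 members were called higher. In KDM4E-SCNT against SCNT, 2 were called higher with no filter on low values. With median-ratio scaling 1 was higher and 51 were lower, with a median of -1.22, and the median was -0.82 with upper-quartile scaling and -0.62 with mitochondrially encoded features removed. Between KDM4E-SCNT and IVF the median was 0.27 with quantile normalization. The cause of these shifts was not tested. The median of all features itself moved, by -0.33 with median-ratio scaling in both comparisons with SCNT, and by -0.22 for IVF and -0.32 for KDM4E-SCNT with quantile normalization.

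With 1 library left out, IVF against SCNT gave 52 to 64 members called, 7 to 13 higher and 44 to 52 lower, with medians of -1.21 to -0.94. KDM4E-SCNT against SCNT gave 13 to 41 called, 0 to 6 higher and 13 to 37 lower, with medians of -0.85 to -0.64. KDM4E-SCNT against IVF gave 8 to 20 called, 8 to 20 higher and 0 to 2 lower, with medians of 0.31 to 0.52. Where this leaves 1 KDM4E-SCNT library, it is assumed to vary like the other groups.

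The 7 pairs of libraries with the same replicate number had correlations of 0.01 to 0.12, all positive and 1 of them over 0.1. The 14 other pairs between groups had correlations of -0.13 to 0.13. As the values were small, the numbers were not taken to pair the samples, though a weak pairing cannot be told from these values. With a replicate block, 61 of the 62 calls of IVF against SCNT were kept and 2 were gained, 35 of 36 were kept and 2 gained in KDM4E-SCNT against SCNT, and 17 of 20 were kept in KDM4E-SCNT against IVF. With 2 or 3 libraries per group and unknown depth, the counting error behind low values, such as those of COX4I2, COX8B and NDUFV1, is not known.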
